A study of Mus musculus with 24 samples.

Results

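Wild-type (WT) MPP1 libraries were compared with WT haematopoietic stem cell (HSC) libraries across all genes. The comparison used 6 of the 24 libraries of the series, 3 labelled WT MPP1 and 3 labelled WT HSC, which were found by the genotype and population in their titles. Both groups came from mice given tamoxifen, as did every group of the series. The labels give no strain, age or sex, do not say which transgene tamoxifen acted on, and are silent on whether each library is a mouse of its own. The p-values therefore measure variation among libraries within groups, estimated over all 24 libraries of the series. That variation may be technical. The cells were sorted from bone marrow, although the tissue field reads blood, and the gates that defined each population are not given in the sources used here. The remaining groups were WT MPP2 and WT MPP4 and the same 4 populations from mice labelled KO, again 3 libraries each. The series title names P-bodies and myeloid leukemia, and this comparison sets the population labelled MPP1 against the one labelled HSC in wild-type mice.

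Haematopoietic stem cells sit at the top of blood formation and divide rarely. Multipotent progenitors (MPP) arise from them, divide more often and begin to express genes of single blood lineages at low level. In the commonly used mouse scheme MPP1 is the progenitor closest to the stem cell, separated from it by surface CD34, while MPP2 and MPP4 lean to the megakaryocyte and erythroid side and to the lymphoid side. Slamf1 encodes CD150, carried by stem cells, and Flt3 encodes a cytokine receptor that appears as cells move towards lymphoid and myeloid fates.

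The total count per library was 3142956, 3269474 and 3242459 in WT MPP1 and 3311038, 3507645 and 3284501 in WT HSC. Replicates varied beyond counting noise, with a chi-square per gene between pairs of 4.25 to 5.48 in WT MPP1 and 6.22 to 7.1 in WT HSC. In a principal component analysis of the 6 libraries, the first component (27.1% of the variance) separated the groups, from 31 to 57.5 in WT MPP1 and from -63.1 to -27.6 in WT HSC. The second (22%) set WT HSC replicate 3, at -69.9, apart from replicates 1 and 2, at 40.6 and 52.6, so each result was also computed without each library. Reads over olfactory and vomeronasal receptor genes, which are silent in blood cells, gave an estimate of background. Scaled by gene length, that background came to 24.5 ± 0.87% of counts in WT MPP1 and 22.9 ± 1.71% in WT HSC (mean ± SD, n = 3 each), a difference that an exact two-sided permutation test put at p = 0.3, where 0.1 is the smallest p that 3 against 3 allows.

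Of 21964 genes tested, 431 were higher in WT MPP1 than in WT HSC (1.96%) and 402 were lower (1.83%) at an adjusted p below 0.05 in the quasi-likelihood test of edgeR, adjusted by Benjamini-Hochberg. The change is given throughout as a log2 fold change of WT MPP1 over WT HSC with its standard error (SE, n = 3 against 3), and levels as CPM (counts scaled to a common library total). The median over all genes tested was -0.02. Changes of at least 1 on the log2 scale were seen in 155 of the genes that were higher and 106 of those that were lower, and of at least 2 in 47 and 14. The 3 libraries of WT MPP1 did not overlap those of WT HSC for 427 of the 431 and for 395 of the 402; over all genes tested, 10.1% were higher and 10.2% lower without overlap. Most calls lay among abundant genes, with 274 higher and 299 lower among the 3462 genes with a mean of 64 CPM or more, against 11 and 1 among the 8944 genes under 8 CPM, where the median SE was 1.06. A fit after background subtraction called 4.46% of genes, 2.73% higher and 1.73% lower, and 396 of the 431 and 298 of the 402 kept their call and direction. DESeq2 called 5.61% of genes, 3.02% higher and 2.59% lower. Without WT MPP1 replicate 3, the number of genes called lower was 265.

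**Figure D1:**
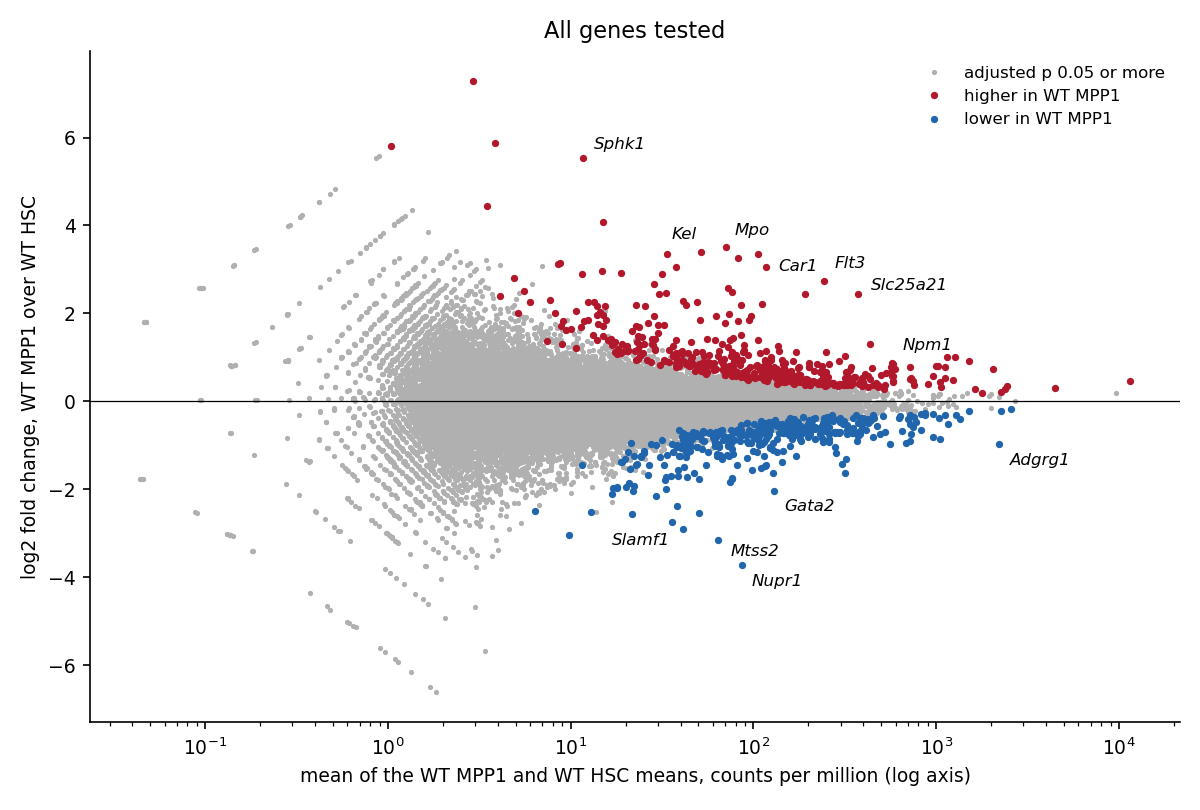
Log2 fold change of WT MPP1 over WT HSC (vertical axis) against the mean of the 2 group means in CPM (horizontal log axis) for the 21964 genes tested. Red points are the 431 genes higher in WT MPP1, blue points the 402 lower, and grey points the genes not called; calls are dense above 64 CPM and sparse below 8 CPM.

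The marker genes were read first, as a check of the labels. Flt3 was at 444, 416 and 405 CPM in WT MPP1 and at 70.2, 53.3 and 65.3 CPM in WT HSC. Cd34 was at 129, 119 and 127 CPM in WT MPP1 and at 48.2, 55.9 and 51.1 CPM in WT HSC. Slamf1 was at 3.8, 20.1 and 5.01 CPM in WT MPP1 and at 74.9, 73.6 and 68.5 CPM in WT HSC. No library of one group reached into the range of the other for these 3 genes, although WT MPP1 replicate 2 held several times the Slamf1 of the other WT MPP1 libraries. The changes were 2.74 ± 0.12 for Flt3 (adjusted p = 6.96e-21, edgeR), 1.28 ± 0.19 for Cd34 (7.25e-06) and -2.90 ± 0.38 for Slamf1 (4.24e-07). The counts expected from background were 60.9% of those of Slamf1 in WT MPP1 and 7.65% in WT HSC, and its change was -3.79 after subtraction.

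The rise of Cd34 is the direction that the name MPP1 carries in the commonly used scheme. The rise of Flt3 and the fall of Slamf1 are not, since in that scheme MPP1 keeps CD150 and lacks FLT3 at the surface, so the population is called by its label here. Cd48, the other SLAM marker, was at 12.8 ± 2.92 CPM in WT MPP1 and 5.15 ± 2.61 CPM in WT HSC (1.30 ± 0.35, adjusted p = 0.0221). Its call was lost without WT MPP1 replicate 2 (0.162), WT HSC replicate 1 (0.0504) or WT HSC replicate 3 (0.203) and in a fit of the 6 libraries alone (0.165), and its change was 2.18 after background subtraction. The stem cell factor receptor Kit was slightly lower, at 636 ± 24.7 CPM against 794 ± 13.9 CPM (-0.32 ± 0.08, adjusted p = 0.00654, and 0.0516 without WT MPP1 replicate 2). Ly6a, which encodes the Sca-1 antigen, and Procr, which encodes the stem cell surface protein EPCR, did not pass the test, at 0.17 ± 0.24 and -0.53 ± 0.36 (adjusted p = 0.947 and 0.703). Kit and Ly6a RNA were thus present in both groups.

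Among the WT populations, the order of levels differed between markers. Flt3 averaged 422 CPM in WT MPP1, 1131 CPM in WT MPP2-labelled, 64.5 CPM in WT MPP4-labelled and 62.9 CPM in WT HSC libraries, and the ranges of the last 2 overlapped. Slamf1 averaged 9.65 CPM in WT MPP1, 7.82 CPM in WT MPP2-labelled, 40.9 CPM in WT MPP4-labelled and 72.3 CPM in WT HSC libraries, and the ranges of WT MPP1 and WT MPP2 overlapped. Car1, the red cell carbonic anhydrase, averaged 208 CPM in WT MPP1, 21.8 CPM in WT MPP2-labelled, 326 CPM in WT MPP4-labelled and 25.1 CPM in WT HSC libraries. Mpo, the neutrophil granule enzyme myeloperoxidase, averaged 131, 1518, 102 and 11.4 CPM in the same order. WT MPP1 was therefore the population in which Flt3 and Car1 were both above their WT HSC levels, whereas the other 2 progenitor labels each had 1 of the 2 near the WT HSC level. High Flt3 and Mpo in the MPP2-labelled libraries, and high Car1 with low Flt3 in the MPP4-labelled ones, also run against the lineages those names carry in the commonly used scheme. In bulk libraries a larger share of cells that express a gene cannot be told apart from more RNA per cell.

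**Figure D2:**
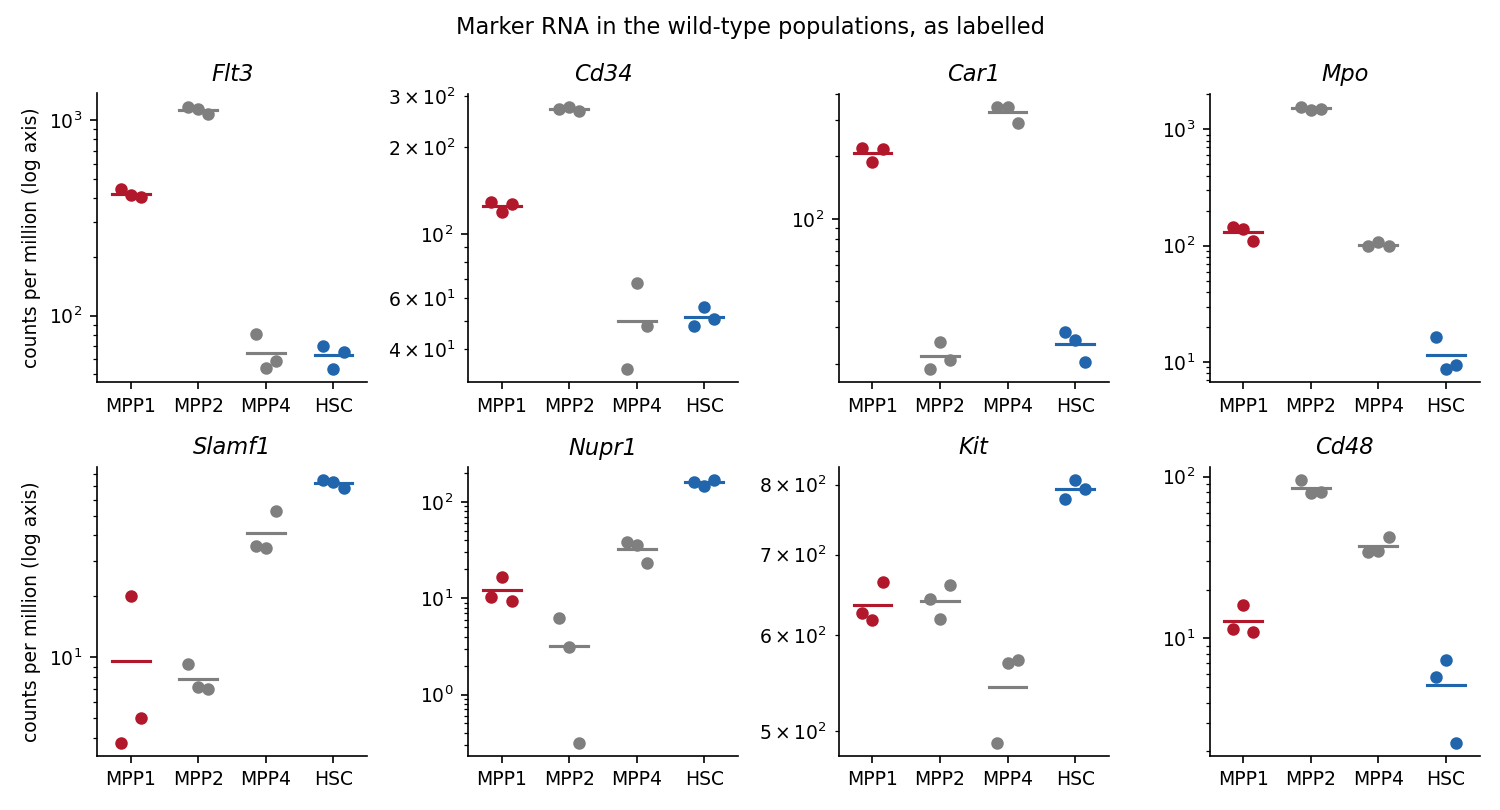
RNA levels of 8 markers in the wild-type populations as labelled, in CPM on log axes, with 1 point per library and a bar at the mean of 3 libraries. WT MPP1 (red) is above WT HSC (blue) for Flt3, Cd34, Car1, Mpo and Cd48 and below it for Slamf1, Nupr1 and Kit, and the 2 middle columns are WT MPP2 and WT MPP4 (grey).

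Genes of red cell formation were the group with the most members higher in WT MPP1. Of 35 listed genes 33 passed the filter on low counts; 23 rose, 1 fell and 9 were not called, and the median change of the 33 was 1.73, beside -0.02 over all genes tested. The transcription factor that fell was Nfe2 (-0.77 ± 0.14, adjusted p = 0.000142), which also serves megakaryocytes. Between 16 and 21 members rose when any 1 library was left out, and 18 rose after background subtraction. The summed level of the list was 2578 to 2655 CPM in WT MPP1 libraries and 1137 to 1189 CPM in WT HSC libraries, and Alas2, the red cell enzyme of haem synthesis, had no count in any of the 6. Whether reads could be assigned to Alas2 was not tested.

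Several genes of the red cell membrane and its skeleton rose. Ank1, which encodes the ankyrin that ties the membrane to spectrin, was at 347, 322 and 299 CPM in WT MPP1 and at 47.6, 49.3 and 82.4 CPM in WT HSC (2.43 ± 0.23, adjusted p = 1.72e-10, edgeR). Ermap, a red cell adhesion protein that carries the Scianna blood group, was at 183, 197 and 203 CPM in WT MPP1 and at 19.6, 17.9 and 19.6 CPM in WT HSC (3.35 ± 0.28). For both, all WT MPP1 libraries lay far above all WT HSC libraries. The beta spectrin gene Sptb (2.22 ± 0.24) and Rhag, the Rh-associated glycoprotein (2.92 ± 0.55), rose with them. Kel, the Kell blood group peptidase, is not on the list and rose by 3.40 ± 0.43. Background was expected to make up 9.43% of the counts of Ank1, 12.3% of those of Sptb and 15.3% of those of Rhag in WT MPP1, and 48.1%, 53.9% and 110% in WT HSC. After subtraction Ank1 changed by 3.28 and Sptb by 3.19, while for Rhag no WT HSC level above background was left to set a fold against. The anion exchanger Slc4a1 rose less, to 109 ± 9.56 CPM in WT MPP1, against 52.2 ± 3.15 CPM in WT HSC (1.06 ± 0.20).

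Enzymes and haemoglobin moved the same way. Car1 was at 219, 188 and 218 CPM in WT MPP1 and at 28.6, 26.1 and 20.5 CPM in WT HSC (3.05 ± 0.19, adjusted p = 1.05e-15). Pklr, which encodes the pyruvate kinase of red cells and liver and is not on the list, was at 130, 165 and 154 CPM in WT MPP1 and at 12.9, 18.2 and 15.9 CPM in WT HSC (3.25 ± 0.34). The beta globin gene Hbb-bs was at 152, 144 and 149 CPM in WT MPP1 and at 35, 44 and 43.2 CPM in WT HSC (1.86 ± 0.17), and the alpha globin gene Hba-a1 changed by 1.94 ± 0.26. Globin genes have near-identical copies, so counts of single members are uncertain. As a family, globins took 0.0308 ± 0.000945% of counts in WT MPP1 and 0.00818 ± 0.00112% in WT HSC (exact two-sided permutation test, p = 0.1, the smallest possible). The transferrin receptor Tfrc, which imports iron, changed by 1.48 ± 0.33 (adjusted p = 0.0035).

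Regulators of red cell formation did not move as one. Nfe2 fell, and the factors Tal1 and Gfi1b, which act early in the lineage, were not called, with means of 82.1 and 98.6 CPM in WT MPP1 and of 104 and 99.6 CPM in WT HSC (-0.34 ± 0.19 and -0.01 ± 0.18). The 3 that rose were at lower levels. Gata1, the erythroid master factor, was at 24.3, 21.3 and 23.7 CPM in WT MPP1 and at 3.03, 5.8 and 12.2 CPM in WT HSC (1.72 ± 0.48, adjusted p = 0.0277, edgeR). Klf1, its partner in switching on globin genes, was at 11.1, 22.7 and 13.4 CPM in WT MPP1 and at 4.41, 0.527 and 0.284 CPM in WT HSC (3.15 ± 0.82, adjusted p = 0.0151). The erythropoietin receptor Epor was at 19.6, 27.8 and 20.9 CPM in WT MPP1 and at 8.81, 2.64 and 3.69 CPM in WT HSC (2.17 ± 0.52, adjusted p = 0.00715). The groups did not overlap for any of the 3, but the WT HSC libraries were spread widely. The call of Gata1 was lost after background subtraction, where its change was 2.35 (adjusted p = 0.192, edgeR), and without any of the 3 WT MPP1 libraries, WT HSC replicate 1 or WT HSC replicate 2 (0.0577 to 0.21). That of Klf1 was lost after subtraction, where its change was 3.55 (0.185), and without WT MPP1 replicate 2, WT HSC replicate 2 or WT HSC replicate 3 (0.0963, 0.124 and 0.115). That of Epor was lost without WT HSC replicate 2 (0.0819) or 3 (0.0584).

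AGATAA is a form of the site that GATA factors bind. The sequence just upstream of 3 of the genes that rose is shown because it holds AGATAA. The sequences are the 250 bases before the transcription start in RefSeq on GRCm38.p6, 5′ to 3′ on the strand of the gene, with a match to AGATAA or its reverse complement TTATCT in capitals. Hbb-bs lies at chr7:103827929-103828178 (minus strand), Kel at chr6:41704326-41704575 (minus strand) and Epor at chr9:21963577-21963826 (minus strand), and these genes were picked with their values known.
Hbb-bs: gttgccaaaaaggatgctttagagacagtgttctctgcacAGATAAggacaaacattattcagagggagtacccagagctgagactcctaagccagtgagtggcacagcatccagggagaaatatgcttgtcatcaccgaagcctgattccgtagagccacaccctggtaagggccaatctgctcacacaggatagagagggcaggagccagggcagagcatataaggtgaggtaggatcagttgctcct
Kel: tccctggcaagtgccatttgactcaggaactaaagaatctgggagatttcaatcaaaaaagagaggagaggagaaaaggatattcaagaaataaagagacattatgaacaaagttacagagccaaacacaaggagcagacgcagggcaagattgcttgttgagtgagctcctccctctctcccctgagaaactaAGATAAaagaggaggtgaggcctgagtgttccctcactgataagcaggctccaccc
Epor: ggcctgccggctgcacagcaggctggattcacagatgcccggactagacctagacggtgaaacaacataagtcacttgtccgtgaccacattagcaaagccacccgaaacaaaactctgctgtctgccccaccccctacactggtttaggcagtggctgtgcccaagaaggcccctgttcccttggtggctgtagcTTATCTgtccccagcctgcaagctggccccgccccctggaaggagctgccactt

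The match began 210 bases before the start of Hbb-bs, 56 bases before that of Kel and 54 bases before that of Epor. Of the 23 listed red cell genes that rose, 16 had an entry among the promoters, and 3 of the 16 (18.8%) held AGATAA on either strand. Of all listed red cell genes with an entry 7 of 24 (29.2%) held it, beside 3090 of 27025 (11.4%) of all genes with an entry. Other forms of the site, such as TGATAA in the Kel sequence, were not marked or counted. A match describes the letters only and is not evidence of binding.

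The largest rises outside the red cell list were mostly of genes at low level in WT HSC. Mpo was at 144, 140 and 109 CPM in WT MPP1 and at 16.3, 8.7 and 9.37 CPM in WT HSC (3.51 ± 0.15, adjusted p = 6.96e-21, edgeR). Paqr9, a progestin receptor family member, was at 25.7, 30 and 29.2 CPM in WT MPP1 and at 3.03, 0.527 and 1.42 CPM in WT HSC (4.07 ± 0.69). Atp1b2, a beta subunit of the sodium pump, and Btnl10, a butyrophilin-like gene, changed by 3.36 ± 0.44 and 3.06 ± 0.45. Ccne1, the cyclin E that carries cells from G1 into S phase, was at 11.4, 20.4 and 14.5 CPM in WT MPP1 and at 2.75, 0.791 and 1.7 CPM in WT HSC (3.12 ± 0.62, adjusted p = 0.000799). Background was expected to make up 5.1% of the counts of Paqr9 and 10.7% of those of Ccne1 in WT MPP1, and 82.7% and 89.4% in WT HSC, and the changes were 5.56 and 5.15 after subtraction. Sphk1, which makes the lipid signal sphingosine 1-phosphate, had 82, 106 and 54 counts in WT MPP1 and 2, 2 and 1 counts in WT HSC, so no fold is given.

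**Figure D3:**
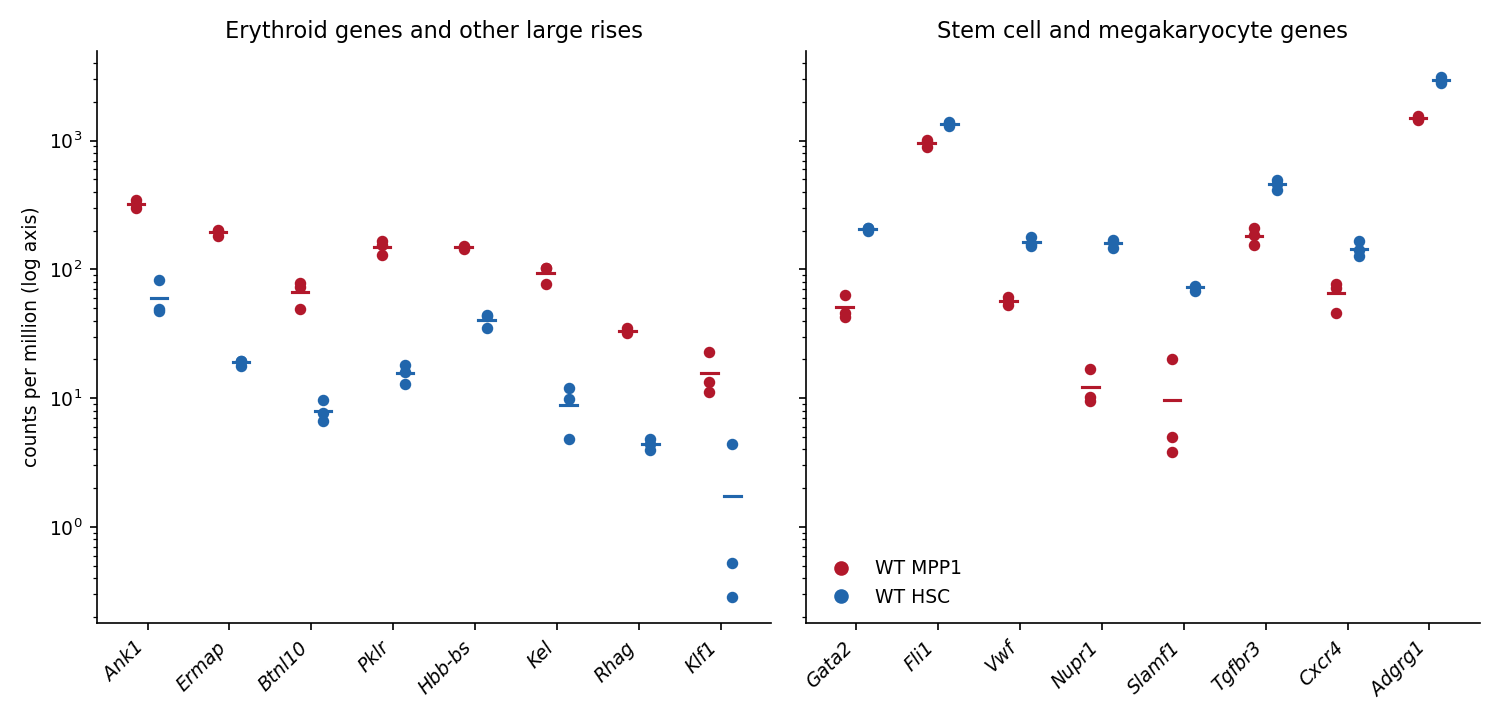
Levels of 16 genes in each library, in CPM on a log axis, with WT MPP1 (red) left of WT HSC (blue) for each gene, 1 point per library and a bar at the mean of 3. For the 8 genes on the left every WT MPP1 library is above every WT HSC library, with Klf1 the most scattered in WT HSC, and for the 8 on the right every WT MPP1 library is below.

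Stem cell surface genes were mostly lower in WT MPP1. Of 30 listed genes 26 passed the filter; 15 fell, 2 rose and 9 were not called, with a median change of -1.16. Between 11 and 13 fell when any 1 library was left out, and 11 after background subtraction. Adgrg1, an adhesion receptor also called GPR56, was at 1559, 1474 and 1454 CPM in WT MPP1 and at 2892, 3128 and 2775 CPM in WT HSC (-0.97 ± 0.05, adjusted p = 8.28e-18). Each group was tight and the groups lay far apart.

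Tgfbr3, a coreceptor for transforming growth factor beta, was at 209, 154 and 186 CPM in WT MPP1 and at 461, 414 and 494 CPM in WT HSC (-1.32 ± 0.12). The chemokine receptor Cxcr4, which holds stem cells in the marrow niche, was at 77.5, 45.9 and 71.8 CPM in WT MPP1 and at 141, 166 and 127 CPM in WT HSC (-1.15 ± 0.16). The angiopoietin receptor Tek, which also acts in niche retention, and its relative Tie1 changed by -1.24 ± 0.24 and -1.25 ± 0.21, with the call of Tek lost after background subtraction, where its change was -1.95 (adjusted p = 0.129, edgeR). The adhesion molecule Alcam was 1 of the 2 members that rose (0.88 ± 0.15, adjusted p = 6.76e-05).

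Stem cell transcription factors fell in part, and by less. Of 27 listed factors 23 passed the filter; 10 fell and 13 were not called, with a median change of -0.27. Between 8 and 9 fell without any 1 library and 7 after background subtraction, when 1 rose. Gata2, which keeps stem cells in their undifferentiated state, was at 43, 63.5 and 45.9 CPM in WT MPP1 and at 211, 210 and 200 CPM in WT HSC (-2.03 ± 0.17, adjusted p = 1.04e-11). Prdm16, a zinc finger factor needed for stem cell upkeep, and Fli1, an ETS factor of stem cells and megakaryocytes, changed by -0.69 ± 0.12 and -0.51 ± 0.06. For these 3 genes the groups did not overlap.

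Mycn, a Myc family member, was at 9.35, 3.69 and 7.79 CPM in WT MPP1 and at 28.6, 31.6 and 21.6 CPM in WT HSC (-1.97 ± 0.45, adjusted p = 0.00447, edgeR, and 0.0661 without WT MPP1 replicate 2). The most abundant factors moved little. Runx1 averaged 2393 CPM in WT MPP1 and 2715 CPM in WT HSC (-0.18 ± 0.05, adjusted p = 0.0277), and Meis1 averaged 1390 CPM in WT MPP1 and 1619 CPM in WT HSC (-0.22 ± 0.06, adjusted p = 0.0352). Scaling by median-of-ratios size factors ended both calls (0.0586 for Runx1 and 0.0717 for Meis1), as did testing without a filter (0.0733 and 0.0824) and background subtraction (0.154 and 0.146). Without a single library the call of Runx1 was lost for WT MPP1 replicate 1, WT MPP1 replicate 3 and WT HSC replicate 3 (0.0841, 0.222 and 0.254), and that of Meis1 for all but WT MPP1 replicate 3 (0.0503 to 0.158). Mecom and Hlf, used as marks of the most primitive stem cells, did not pass the test, at 2035 ± 85.9 CPM and 1573 ± 47.7 CPM in WT MPP1 against 1860 ± 68.7 CPM and 1375 ± 35 CPM in WT HSC. Hlf (0.19 ± 0.06, adjusted p = 0.0655) was called higher in WT MPP1 with median-of-ratios size factors (0.0284), the 5 CPM filter (0.0296), the 6 libraries alone (0.0233), background subtraction (0.0147) and DESeq2 (0.000523), at changes of 0.20 to 0.24. Hox genes of the A and B clusters were mostly too low to test: of 21 listed 8 passed the filter, and 0 of the 8 were called by edgeR or by DESeq2, with 1 at an unadjusted p below 0.05.

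Megakaryocyte and platelet genes were lower as well. Of 30 listed genes 26 passed the filter; 12 fell and 14 were not called, with a median change of -0.99, and 11 to 12 fell without any 1 library. The summed level of the list was 2468 to 2643 CPM in WT MPP1 and 4372 to 4600 CPM in WT HSC, with Gp1bb and F2rl2 without a count in any of the 6 libraries. Whether reads could be assigned to Gp1bb and F2rl2 was not tested. Vwf, von Willebrand factor, which marks platelet-biased stem cells, was at 52.9, 56.4 and 61.2 CPM in WT MPP1 and at 157, 179 and 152 CPM in WT HSC (-1.51 ± 0.17, adjusted p = 2.75e-08). Selp, the P-selectin of platelet granules, was at 4.68, 7.94 and 9.18 CPM in WT MPP1 and at 22, 29.5 and 33.8 CPM in WT HSC (-1.96 ± 0.38). Treml1, a platelet granule receptor, was at 2.63, 0.283 and 3.34 CPM in WT MPP1 and at 15.4, 18.7 and 18.5 CPM in WT HSC (-3.05 ± 0.71, adjusted p = 0.00488, and 0.0623 without WT MPP1 replicate 2). The multimerin gene Mmrn1 changed by -1.44 ± 0.25 (adjusted p = 8.97e-05, and 0.0526 after background subtraction). After subtraction Selp changed by -3.75 and Treml1 by -3.65. Itga2b, the integrin CD41, did not pass the test (-0.97 ± 0.41, adjusted p = 0.269), although it was called lower in a fit of the 6 libraries alone (0.0397).

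The red cell and megakaryocyte programmes, which share progenitors and several factors, thus moved in opposite directions in these libraries: 23 red cell genes rose and 12 megakaryocyte genes fell. Nfe2 belongs to both lists and fell. Members such as Vwf, Cd9, Itgb3 and Fli1 are counted both among megakaryocyte genes and among stem cell genes, so the counts of those lists are not independent.

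**Figure D4:**
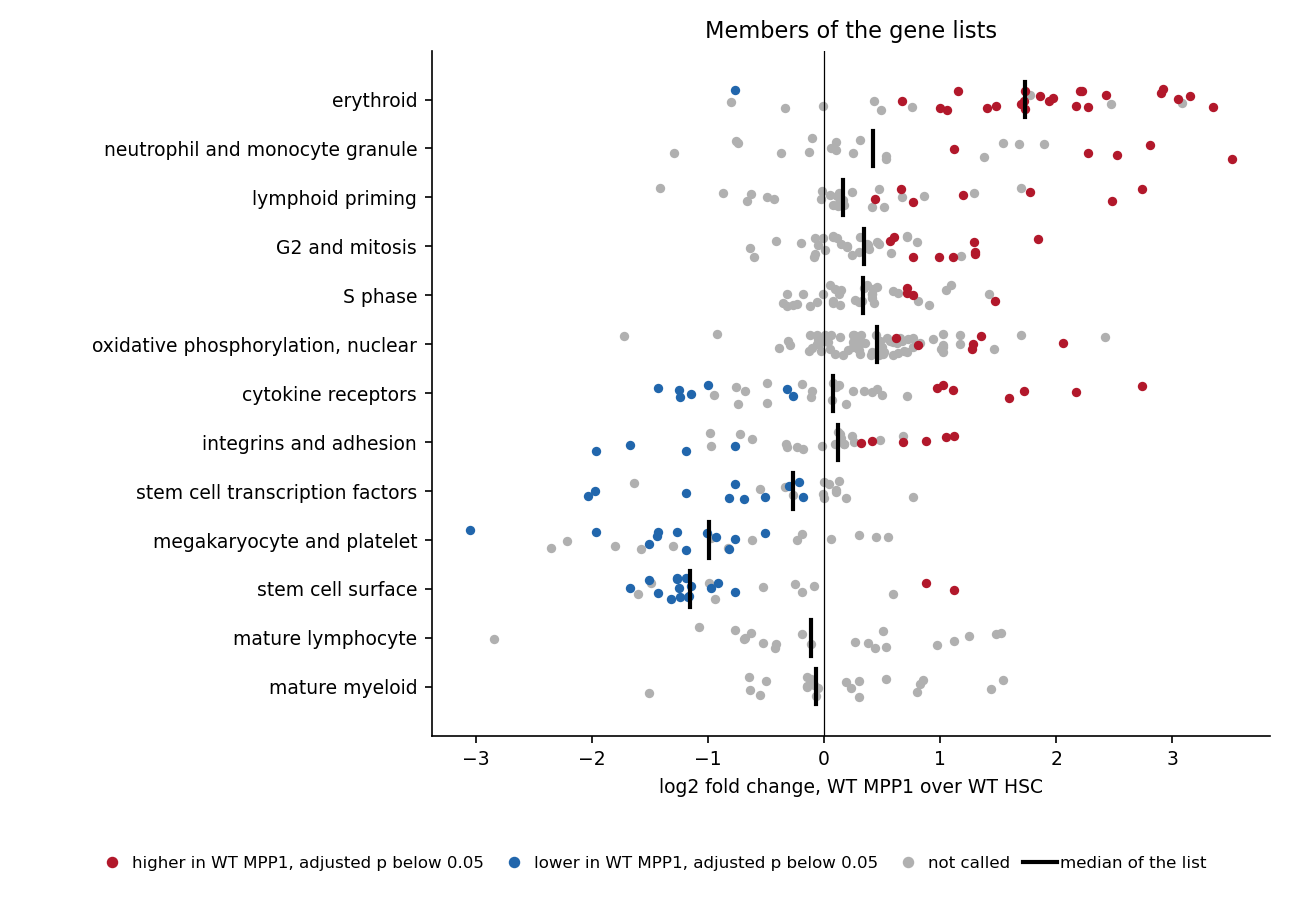
Log2 fold change of WT MPP1 over WT HSC (horizontal axis) for the tested members of 13 gene lists, 1 point per gene, red if higher and blue if lower at an adjusted p below 0.05 and grey if not called, with a black bar at the list's median. The red cell list lies furthest to the right, with 23 of 33 members called higher, and the megakaryocyte and stem cell surface lists furthest to the left, while the 2 lists of mature cells hold no called gene.

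Lymphoid and myeloid genes rose in small numbers. Of 36 genes of lymphoid priming 32 passed the filter; 7 rose and 25 were not called, with a median of 0.16. Besides Flt3, Satb1, a chromatin organiser of early lymphoid cells, was at 114, 137 and 140 CPM in WT MPP1 and at 19.8, 26.6 and 23.3 CPM in WT HSC (2.48 ± 0.17, adjusted p = 8.63e-15). Background was expected to make up 12.9% of its counts in WT MPP1 and 67.8% in WT HSC, and its change was 3.97 after subtraction. Ikzf1, which encodes Ikaros, averaged 903 ± 57.6 CPM in WT MPP1 and 530 ± 49.3 CPM in WT HSC (0.77 ± 0.07). Ighm, the IgM heavy chain gene, was at 21.6, 21.8 and 22.3 CPM in WT MPP1 and at 2.75, 10 and 6.25 CPM in WT HSC (1.77 ± 0.18), and Dntt, the template-free polymerase of early lymphocytes, changed by 1.20 ± 0.25. Il7r, the interleukin 7 receptor, was near the detection limit in both, at 4.28 ± 2.25 CPM in WT MPP1 and 3.23 ± 1.2 CPM in WT HSC, where background was expected to make up 98.8% and 124% of its counts. It was called higher after subtraction (adjusted p = 0.044, edgeR), and Rag1 and Rag2 had no count in any of the 6 libraries. Whether reads could be assigned to Rag1 and Rag2 was not tested.

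Of 25 genes of neutrophil and monocyte granules 22 passed the filter; 5 rose and 17 were not called, with a median of 0.42. Besides Mpo, the granule gene Ms4a3 and the monocyte surface gene Ly6c2 rose at levels under 10 CPM, as did Elane, neutrophil elastase, at 8.58 ± 4.65 CPM in WT MPP1 and 1.22 ± 1.9 CPM in WT HSC (2.81 ± 0.51, adjusted p = 0.000237, edgeR, and 0.0535 in a fit of the 6 libraries alone). Elane had 0, 1 and 12 counts in the WT HSC libraries. Of 16 tested myeloid transcription factors 1 rose, beside 1.96% of all genes tested. It was Runx2 (0.44 ± 0.07, adjusted p = 3.68e-05, edgeR). Of 21 tested mast cell and basophil genes 2 rose and 2 fell, beside 1.96% and 1.83% of all genes tested. Those that fell, Gata2 and Kit, are stem cell genes as well. Il1rl1, the interleukin 33 receptor of mast cells, was at 32.2, 24.9 and 40.9 CPM in WT MPP1 and at 5.78, 15.6 and 11.1 CPM in WT HSC (1.59 ± 0.24, and 2.43 after background subtraction). Prg2, the eosinophil major basic protein, averaged 5.85 CPM in WT MPP1 and had no count in WT HSC (adjusted p = 0.00364, edgeR), so no fold is given. DESeq2 called 1 member of the mast cell and basophil list higher and 2 lower.

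Markers of mature blood cells, from outside the sorted populations, were mostly low. Of 21 tested genes of mature lymphocytes and 23 of mature myeloid cells, 0 were called by edgeR or by DESeq2, and 1 of each list had an unadjusted p below 0.05. Over all genes 3.79% were called by edgeR, so counts of 0 are near the background share, and the median SE was 1.01 in the lymphocyte list and 0.82 in the myeloid list. Their summed levels overlapped, at 150.8 to 197.9 CPM in WT MPP1 and 162.4 to 215.3 CPM in WT HSC for lymphocytes and at 241.7 to 266.2 CPM and 240.2 to 291.4 CPM for myeloid cells. The B cell gene Ms4a1 and the myeloid integrin gene Itgam had no count in any of the 6 libraries. Receptor genes that are silent in blood cells did hold background counts, so a total lack of counts does not by itself show that the RNA was absent. Whether reads could be assigned to Ms4a1 and Itgam was not tested. For stroma and endothelium the sums were 1674 to 1849 CPM in WT MPP1 and 1426 to 1460 CPM in WT HSC, without overlap, and 1 of 23 tested genes was called, Runx2, which is also on the myeloid list. Runx2 alone averaged 1205 CPM in WT MPP1 and 887 CPM in WT HSC, which is about the size of the gap between the sums.

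Called genes of S phase, G2 and mitosis were higher in WT MPP1. Of 40 listed genes of G2 and mitosis 38 passed the filter; 9 rose and 29 were not called, with a median of 0.34. The proliferation marker Mki67 was at 704, 666 and 710 CPM in WT MPP1 and at 502, 429 and 471 CPM in WT HSC (0.57 ± 0.07, adjusted p = 3.85e-08). The mitotic kinase Plk1 was at 90.3, 101 and 95.7 CPM in WT MPP1 and at 49.3, 27.2 and 40.3 CPM in WT HSC (1.30 ± 0.16). Cyclin A2, Ccna2, and the spindle protein gene Hmmr changed by 1.29 ± 0.25 and 1.30 ± 0.27. The groups did not overlap for these 4 genes.

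Of 39 listed genes of S phase 38 passed the filter; 4 rose and 34 were not called, with a median of 0.34. They were Pola1, which starts DNA strands as part of polymerase alpha (0.77 ± 0.10), the replication licensing factor Cdc6 (1.47 ± 0.33), the ubiquitin ligase adaptor Dtl (0.71 ± 0.16) and the helicase subunit Mcm6 (0.71 ± 0.16). The call of Mcm6 was lost without WT MPP1 replicate 2 (adjusted p = 0.0631, edgeR) or WT HSC replicate 3 (0.0927). Among G1 regulators, Cdk6, the kinase whose level sets how fast stem cells leave rest, averaged 851 ± 8.17 CPM in WT MPP1 and 657 ± 42 CPM in WT HSC (0.37 ± 0.06). Cyclin D2, Ccnd2, went the other way, at 126, 107 and 116 CPM in WT MPP1 and at 220, 177 and 231 CPM in WT HSC (-0.85 ± 0.12, adjusted p = 4.42e-06). Cyclin E1 and Cdk6 were thus higher and cyclin D2 lower in WT MPP1.

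Growth and energy genes were called in small numbers. Over all genes tested 1.96% rose and 1.83% fell. Of 49 tested ribosome biogenesis genes 3 rose: the nucleolar chaperone Npm1, at 748, 757 and 734 CPM in WT MPP1 and 416, 392 and 405 CPM in WT HSC (0.88 ± 0.07, adjusted p = 9.35e-13), nucleolin, Ncl (0.61 ± 0.10), and Nop58 (0.81 ± 0.16). Of 72 tested nuclear genes of oxidative phosphorylation 6 rose, with a median of 0.46, among them Cox7c of complex IV (2.06 ± 0.45) and Atp5g1 of ATP synthase (1.27 ± 0.30). That number was 3 without WT MPP1 replicate 3, WT HSC replicate 1 or WT HSC replicate 2, and 2 without WT HSC replicate 3. Of 11 tested mitochondrially encoded genes 4 rose, led by mt-Nd1 of complex I at 345, 378 and 455 CPM in WT MPP1 and 249, 225 and 290 CPM in WT HSC (0.62 ± 0.11), and the number was 2 without WT MPP1 replicate 3 or WT HSC replicate 1 and 1 without WT HSC replicate 2. The share of counts was also taken over all mitochondrially encoded genes, including those outside the list. It was 1.46 ± 0.0797% in WT MPP1 and 1.21 ± 0.0825% in WT HSC (exact two-sided permutation test, p = 0.1, the smallest possible). Of 34 tested genes of glycolysis and hypoxia 2 fell, the glucose transporter Slc2a1 and the isomerase Gpi1 (-0.82 ± 0.20 and -0.40 ± 0.10). Their number was 1 without WT MPP1 replicate 1, WT HSC replicate 1 or WT HSC replicate 3, and 0 without WT MPP1 replicate 3, when both still had an adjusted p below 0.2 (0.0663 and 0.174, edgeR).

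Nupr1, a small nuclear protein induced by stress, showed the largest fall in WT MPP1 among the named genes. It was at 10.2, 16.7 and 9.46 CPM in WT MPP1 and at 163, 147 and 169 CPM in WT HSC (-3.72 ± 0.32, adjusted p = 1.87e-11), with every WT MPP1 library far below every WT HSC library. Of 26 tested genes on the list of Nupr1 and stress genes, 1 fell and 2 rose. The asparagine synthetase gene Asns rose (2.04 ± 0.52, adjusted p = 0.0131, with a change of 2.95 after background subtraction), but not without WT MPP1 replicate 1 (0.0846), WT HSC replicate 1 (0.0738) or WT HSC replicate 3 (0.0991). The metallothionein Mt1 averaged 7.6 CPM in WT MPP1 and 0.0947 CPM in WT HSC (adjusted p = 0.000423, edgeR), and the WT HSC level is too near the floor for a fold to be given. DESeq2 called 1 member of this list higher and 1 lower. Other groups had few calls, beside 3.79% of all genes tested called in either direction. Of 28 tested immediate early genes 2 fell, Fosb (-0.74 ± 0.13) and Egr1 (-0.74 ± 0.17, adjusted p = 0.00336, and 0.0507 after background subtraction), and 2 rose.

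P-bodies are cytoplasmic granules in which RNA is held and broken down. Of 38 tested genes of P-body proteins 1 rose and 1 fell, with a median of 0.04. Over all genes tested 1.96% rose and 1.83% fell, so counts of 1 are near the background share. The one that rose, Pan3, encodes a subunit of the deadenylase that trims poly(A) tails, and was at 740, 768 and 718 CPM in WT MPP1 and at 427, 457 and 450 CPM in WT HSC (0.74 ± 0.07, adjusted p = 1.93e-10). The one that fell, Ago1, carries microRNAs (-0.53 ± 0.15, adjusted p = 0.0388). Median-of-ratios size factors (0.0505) and background subtraction (0.0669) ended its call, as did leaving out WT MPP1 replicate 2 (0.203), WT MPP1 replicate 3 (0.172), WT HSC replicate 1 (0.0868) or WT HSC replicate 2 (0.24). Ddx6, the helicase that P-bodies need to form, had 43.7 to 68.7 CPM in WT MPP1 and 54.9 to 66.7 CPM in WT HSC (-0.08 ± 0.19, adjusted p = 0.976).

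Cytokine receptors split evenly. Of 35 listed receptors 34 passed the filter; 7 rose, 7 fell and 20 were not called, with a median of 0.08. For each list of this paragraph, the shares over all genes tested were 1.96% higher and 1.83% lower. Those that rose included Flt3, Il1rl1 and Epor, and those that fell included Kit, Cxcr4, Tek and Tie1. Without WT HSC replicate 2 the number that rose was 3. Of 29 tested genes of integrins and adhesion 6 rose and 4 fell, among them the hyaluronan receptor Cd44, which rose (0.68 ± 0.12), and Selp, which fell. Of 29 tested genes of the TGF-beta, BMP, Notch and Wnt pathways 3 fell: Tgfbr3, the coreceptor endoglin, Eng (-0.69 ± 0.11), and the ligand Tgfb1 (-0.44 ± 0.11, adjusted p = 0.00762, and 0.0577 and 0.0667 without WT MPP1 replicate 3 or WT HSC replicate 3, and 0.0559 in a fit of the 6 libraries alone).

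Other large falls were of genes less often tied to stem cells. Mtss2, an actin-binding scaffold gene, was at 20.2, 7.09 and 11.4 CPM in WT MPP1 and at 122, 126 and 95.7 CPM in WT HSC (-3.15 ± 0.35, adjusted p = 8.92e-09). The imprinted noncoding RNA Meg3 was at 7.6, 7.37 and 12.8 CPM in WT MPP1 and at 56.7, 72.8 and 57.9 CPM in WT HSC (-2.75 ± 0.69, adjusted p = 0.0106). Its call was lost after background subtraction, where its change was -3.76 (0.2), and without WT MPP1 replicate 1, WT MPP1 replicate 2 or WT HSC replicate 2 (0.0752, 0.08 and 0.0612). Art4, the enzyme of the Dombrock blood group, was at 21.3, 11.1 and 12 CPM in WT MPP1 and at 82.1, 91.8 and 84.4 CPM in WT HSC (-2.54 ± 0.33). Unlike Kel, Ermap and Rhag, this blood group gene was lower in WT MPP1. The RNA-binding protein gene Rbm38, the tensin Tns2 and the alpha tubulin Tuba8 changed by -2.56 ± 0.38, -2.37 ± 0.47 and -2.10 ± 0.35. Clec9a, a lectin best known from dendritic cells, averaged 3.81 ± 1.02 CPM in WT MPP1 and 22.1 ± 12.1 CPM in WT HSC (-2.52 ± 0.54), with WT HSC replicate 3 at 36.1 CPM against 15.7 and 14.5 CPM in the other WT HSC libraries. After subtraction Clec9a changed by -4.13 and Tuba8 by -2.72.

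Genes outside the lists with the smallest p, taken as 10 in each direction by a rule chosen after values were seen, were abundant. Slc25a21, a mitochondrial carrier of oxoadipate, was at 589, 685 and 618 CPM in WT MPP1 and at 118, 124 and 108 CPM in WT HSC (2.44 ± 0.13, adjusted p = 5.94e-18, edgeR). Several of the others span long stretches of genome. Whether the counts take in introns is not given in the sources used here. The background estimate, scaled by whole gene spans, assumes that they do. Lrmda averaged 2562 ± 157 CPM in WT MPP1 and 1539 ± 62.6 CPM in WT HSC (0.74 ± 0.06), and the ubiquitin ligase gene Rnf220 averaged 1533 ± 17.9 CPM in WT MPP1 and 762 ± 57.1 CPM in WT HSC (1.01 ± 0.06). The share of counts expected from background was 13.3% for Slc25a21, 6.99% for Lrmda and 2.54% for Rnf220 in WT MPP1, and 67.6%, 11% and 4.82% in WT HSC, and after subtraction the changes were 3.91, 0.84 and 1.09. Genes called higher had a median span of 56.3 kb and genes called lower of 37.3 kb, beside 22.8 kb over all genes tested. Their median levels were 91.1 CPM, 122 CPM and 12 CPM in the same order, and spans were not compared at matched level.

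Also on that list were the carboxylesterase Ces2g (2.19 ± 0.19), the signalling adaptor Clnk (1.12 ± 0.10), the GTPase regulators Arhgap15 and Dock10 (0.79 ± 0.06 and 0.78 ± 0.07), the Notch coactivator Maml3 (0.81 ± 0.07) and the adhesion receptor Adgrl4 (0.81 ± 0.07). Among the falls, Lhcgr, the luteinising hormone receptor, was at 143, 155 and 167 CPM in WT MPP1 and at 475, 473 and 499 CPM in WT HSC (-1.64 ± 0.14, adjusted p = 1.04e-11). The vitamin D receptor Vdr was at 57.9, 74.8 and 53.4 CPM in WT MPP1 and at 173, 219 and 186 CPM in WT HSC (-1.63 ± 0.17). Both receptors had counts in every library, and the groups did not overlap. Thromboxane synthase, Tbxas1, averaged 750 ± 20.3 CPM in WT MPP1 and 1355 ± 14 CPM in WT HSC (-0.85 ± 0.07). The sialyltransferase St3gal1 (-0.94 ± 0.08), the mucin Muc13 (-1.03 ± 0.09), the monoamine transporter Slc18a2 (-1.25 ± 0.13) and Plxnc1, a semaphorin receptor (-0.98 ± 0.11), fell too. Naip6, an inflammasome sensor (-1.56 ± 0.18), has close copies, so its own share of the reads is uncertain.

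The same step was read in the libraries labelled KO, to test whether the change from HSC to MPP1 itself differed between genotype labels. The labels do not name the deleted gene. Ddx6 was assumed here, from outside knowledge, to be the deleted gene. It had 273 to 308 counts in KO-labelled MPP1 and 194 to 277 in KO-labelled HSC libraries, against 154 to 235 in WT MPP1 and 208 to 242 in WT HSC. In the same order, the CPM ranges were 79.3 to 99.4, 66.6 to 93, 43.7 to 68.7 and 54.9 to 66.7. Its RNA was thus not lower under the KO label, and it bears out neither the labels nor the assumed gene. The background share was 13.9 to 14.5% in KO-labelled MPP1 and 5.49 to 5.95% in KO-labelled HSC libraries, against the 24.5% in WT MPP1 and 22.9% in WT HSC given above, so background moved with population in the KO-labelled libraries; its part in these differences was not tested. In KO-labelled libraries 2756 genes (12.5%) were higher and 1645 (7.49%) lower in MPP1 than in HSC. The WT change minus the KO-labelled change was positive for 860 genes (3.92%) and negative for 1351 (6.15%) of 21964. After background subtraction it was positive for 350 and negative for 211 of 18414 (3.05% in all).

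For red cell genes the WT change was the higher one in 17 of 33 tested. Hbb-bs changed by 1.86 ± 0.17 in WT and 0.06 in KO-labelled libraries, a difference of 1.80 (adjusted p = 2.64e-06, edgeR). Slc4a1 changed by 1.06 in WT and -1.25 in KO-labelled libraries (difference 2.31, 1.89e-07), and Gata1 by 1.72 and -3.61 (difference 5.33, 5.48e-07). These differences were also called after background subtraction, as was that of Epor, but those of Ank1, Klf1, Hba-a1 and Tfrc were not. List counts in this paragraph and the next were made before subtraction. For Ermap, Kel and Pklr the difference did not pass the test (0.30, 0.89 and 0.65). Mpo changed by 3.51 in WT and by 0.04 in KO-labelled libraries (difference 3.47, 8.44e-11). For lymphoid priming the WT change was the lower one in 14 of 32 genes tested and the higher one in 4, with Flt3 at 2.74 in WT and 4.22 in KO-labelled libraries (difference -1.47, 3.02e-08) and Dntt at 1.20 and 5.50 (difference -4.30).

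Cell cycle genes differed in direction. The WT change was the higher one in 23 of 38 G2 and mitosis genes and 18 of 38 S phase genes. Mki67 changed by 0.57 in WT and -1.10 in KO-labelled libraries (difference 1.67, adjusted p = 2.13e-17, edgeR), and Plk1 by 1.30 and -1.20 (difference 2.50). In KO-labelled libraries 25 genes of G2 and mitosis and 21 of S phase were lower in MPP1 than in HSC. Of 23 tested stem cell factors and 26 surface genes, 15 of each were lower and 3 of each higher in KO-labelled MPP1 than in KO-labelled HSC. Over all genes tested in those libraries 7.49% were lower and 12.5% higher, so the counts of 3 are near the background share. Nupr1 changed by -3.72 in WT and -4.40 under the KO label, Gata2 changed by -2.03 and -2.52, and for these the difference did not pass the test (adjusted p = 0.377 and 0.199). It passed for Slamf1 (-2.90 and -5.76, difference 2.87) and Vwf (-1.51 and -3.62, difference 2.11), which fell less in WT; for Slamf1 the difference was 3.56 after subtraction and no longer called.

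**Figure D5:**
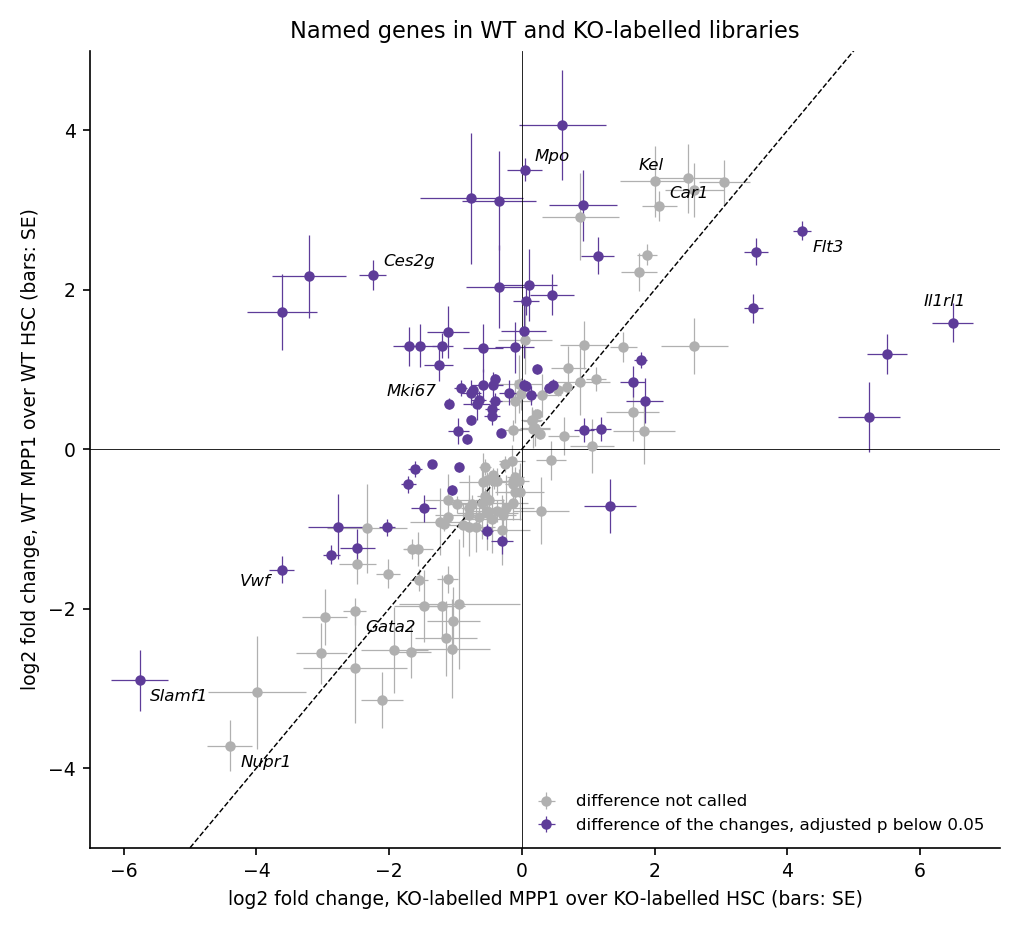
Log2 fold change of WT MPP1 over WT HSC (vertical axis) against that of KO-labelled MPP1 over KO-labelled HSC (horizontal axis) for named genes, leaving out genes with no library above 3 counts in a group, with bars of 1 SE. Purple marks genes whose 2 changes differ at an adjusted p below 0.05, the dashed line marks equal change, and Mpo, Ces2g and Mki67 lie above it while Flt3 and Il1rl1 lie below.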

How the data were processed

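The authors deposited 1 table of raw read counts (whole numbers) for 56748 named genes. Per the labels' protocols, total RNA was extracted with the miRNeasy Micro kit and libraries were made with the NEBNext Ultra II RNA kit. The submitters' processing notes list mm39, SAMtools 1.12 and DESeq2 without saying what each did. The aligner, counting program, annotation and strand setting are not given in the sources used here, so overlapping and antisense genes cannot be told apart. Each column was matched to a sample by its description.

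Genes that passed edgeR's filterByExpr on the 8 groups (21964) were fitted with edgeR 4.0.16 (R 4.3.3): trimmed mean of M-values scaling, 1 quasi-likelihood model of all 24 libraries (common biological coefficient of variation 0.393, residual degrees of freedom 16), the contrast WT MPP1 minus WT HSC, and Benjamini-Hochberg adjustment with a threshold of 0.05. The SE was obtained by dividing the size of the log2 change by the root of F. Background per kb came from 1737 olfactory and vomeronasal receptor genes with gene spans of GENCODE M21 (GRCm38), in which 91.9% of identifiers were found; a second fit, of 18414 genes, used counts less this background. The scripts were tested on simulated data.

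Named genes were the 12 largest rises and 12 largest falls among called genes with at least 10 CPM in the higher group and no overlap, up to 4 members of each list by p, and the markers; any others were picked with their values known. The members and lists were chosen with earlier results of these data known. No fold is given where no library of a group exceeded 3 counts. Alternatives were median-of-ratios size factors, other filters, DESeq2 1.42.0, the 6 libraries alone, a replicate block, each library left out and background subtraction. Depth was even (3142956 to 3507645 counts per library), and the SE grows quickly below 16 CPM. Some genes that met the naming rule are not reported here; they stay in the counts.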

Additional observations from a re-analysis of the deposited data

Results flagged for a closer look

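Each result here is a named gene whose change from WT HSC to WT MPP1 differed from the change between the same populations labelled KO, by edgeR's interaction term at an adjusted p below 0.05. Values are the WT log2 change minus the KO-labelled one. The background share was 24.5% in WT MPP1 and 22.9% in WT HSC, and 13.9 to 14.5% in KO-labelled MPP1 and 5.49 to 5.95% in KO-labelled HSC libraries, so differences are split by whether they were also called after background subtraction.

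The WT change was lower than the KO-labelled one, also after subtraction, for Il1rl1 (-4.90), Dntt (-4.30), Ighm (-1.72), Flt3 (-1.47), Csf2rb (-0.95), Cxcr4 (-0.85), Dusp5 (-0.82), Clnk (-0.66), Muc13 (-0.50). It was lower, but not called after subtraction, for Il7r (-4.82), Flt1 (-2.04), Vldlr (-1.24), Satb1 (-1.05), Pecam1 (-0.69).

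The WT change was higher than the KO-labelled one, also after subtraction, for Fli1 (0.54), Arhgap15 (0.72), Meis1 (0.73), Rnf220 (0.77), Maml3 (0.79), mt-Nd2 (0.95), Mecom (0.95), Ncl (1.01), Plxnc1 (1.05), Cdk6 (1.13), Runx1 (1.17), Rbl1 (1.19), Nop58 (1.24), Nolc1 (1.25), Tgfb1 (1.26), mt-Nd1 (1.28), Npm1 (1.28), Zeb2 (1.36), Cyc1 (1.39), Lrmda (1.47), Dtl (1.47), Tgfbr3 (1.55), Mki67 (1.67), Pola1 (1.69), Hbb-bs (1.80), Atp5g1 (1.85), Vwf (2.11), Slc4a1 (2.31), Plk1 (2.50), Cdc6 (2.57), Hmmr (2.83), Ccna2 (2.99), Ccne1 (3.46), Mpo (3.47), Ces2g (4.44), Gata1 (5.33), Epor (5.37). It was higher, but not called after subtraction, for Adgrl4 (0.33), Ikzf1 (0.36), mt-Co1 (0.52), Cd44 (0.53), Egr1 (0.74), mt-Nd4 (0.87), Mcm6 (0.90), Tek (1.24), Ank1 (1.29), Atp5g3 (1.39), Tfrc (1.44), Hba-a1 (1.49), Itga2b (1.80), Cox7c (1.95), Btnl10 (2.13), Asns (2.38), Slamf1 (2.87), Paqr9 (3.45), Klf1 (3.91).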

How the results depend on the processing

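Precision was lowest for low genes, with a median SE of 1.06 under 8 CPM: of 8944 such genes, 11 were called higher and 1 lower. With DESeq2, 663 genes were higher and 569 lower, against 431 and 402 by edgeR. Without any 1 library, 300 to 341 were higher and 265 to 326 lower, and 560 to 616 of the 833 calls remained. List members, counted over all lists, numbered 64 to 75 higher (83 with all libraries) and 34 to 41 lower (47 with all libraries). The WT minus KO-labelled difference was positive for 670 to 763 genes and negative for 1017 to 1238 without any 1 library, and for 350 and 211 after background subtraction, against 860 and 1351. Subtraction left 694 of the 833 calls and gave 502 higher and 319 lower, a split with more higher calls. Median-of-ratios size factors shared 792 of the 833. The cause of these shifts was not tested. A replicate block in the 6 libraries gave 534 higher and 650 lower, against 504 and 603 in the same libraries without it. Deviations of same-numbered libraries from their group means had correlations of 0.012, -0.009 and -0.002 over 14596 genes. Such correlations cannot tell whether same-numbered libraries shared a mouse or a sort, which the labels do not say. Of 120 named calls, 0 reversed under any alternative run, although DESeq2 gave a value for only 112 of them. Subtraction lost 13 of the calls, and leaving out any 1 library lost 11 to 15.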
